A study of Mus musculus with 6 samples.

Results

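The genes described here are 31 genes of myelin and of mature oligodendrocytes, chosen by symbol: Mbp, Mog, Mag, Mobp, Cnp, Cldn11, Ermn, Opalin, Ugt8a, Mal, Gjb1, Aspa, Sox10, Tspan2, Trf, Qdpr, Car2, Gsn, Cryab, Apod, Fa2h, Gal3st1, Pllp, Hapln2, Nkx6-2, Klk6, Evi2a, Plekhb1, Bin1, Cntn2 and Adamts4. Every group of array probes (a probe set) that the platform annotation ties to exactly 1 of these symbols was taken, which gave 69 of the 45037 probe sets on the array and 30 of the 31 genes. The probe set for Trf, the iron carrier transferrin, is annotated to a second gene as well, so Trf is not described. Of the 69 probe sets, 58 exceeded a log2 value of 4 on at least 3 arrays and were tested. They represent 29 genes; the transcription factor gene Nkx6-2 was measured at 3.39 to 3.90 and did not pass this filter.

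Expression was measured in medial prefrontal cortex of both hemispheres, taken 2 h after fear extinction training from male 129S1/SvImJ mice aged 8 to 10 weeks. The samples were 3 mice on a diet labelled ZnR (mice 3, 7 and 11) and 3 mice on the control diet (mice 1, 5 and 9), all of which had been through the training. The labels describe ZnR as a zinc diet and give no composition. An Affymetrix Mouse430_2 array was hybridized per mouse, and with so few arrays precision is limited throughout.

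Oligodendrocytes are the glial cells that wrap axons of the brain with myelin, a stack of lipid-rich membrane held together by a small set of abundant proteins. Precursor cells become newly formed oligodendrocytes and then mature ones, and Sox10 and Myrf are transcription factors that switch on the myelin genes along that path. Cortex holds fewer myelinated axons than the white matter beneath it. In bulk tissue, more oligodendrocytes and more of a transcript per oligodendrocyte cannot be told apart.

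The defining mature oligodendrocyte markers Mbp, Mobp, Mag, Mog and Opalin were above the filter on every array, with values from 7.15 for Opalin in control mouse 9 to 14.44 for Mbp in ZnR mouse 11. Each gene was represented by its tested probe set with the highest mean, and these averaged 4.63 to 14.35 log2 units over the 6 mice. Levels of different probe sets are not compared, since probes differ in response.

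None of the 29 genes differed between the diets past the threshold of an adjusted p of 0.05, yet 27 of them averaged higher in ZnR mice (57.6% of all genes did) and 2 lower (42.4% of all genes). The typical member was higher by a log2 difference of 0.38 (the median over the 29 genes, range -0.06 to 0.61), against a median of 0.03 over all genes. Bin1 (-0.04) and Cntn2 (-0.06) were the 2 members that averaged lower. Neurons also express both, and the part of neurons in these values was not tested. Of the 58 probe sets, limma called 0 higher and 0 lower, where it called 1.47% of all tested probe sets, 0.461% higher and 1.01% lower. At an unadjusted p under 0.05, 14 member probe sets (24.1%) were higher and 0 lower, where 9.06% of all probe sets were higher and 7.9% lower. The smallest adjusted p among the members was 0.102.

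Averaged over the list, the 3 ZnR mice did not share this difference. With each gene centred on its mean over the 6 mice, the 29 genes averaged 0.25, -0.20 and 0.49 log2 units in ZnR mice 3, 7 and 11, against -0.14, -0.13 and -0.27 in control mice 1, 5 and 9. Mice 3 and 11 were above every control and mouse 7 was among the controls, lying 0.01 below their mean. Gene by gene, mice 3 and 11 were more uniform than mouse 7. ZnR mouse 11 had the highest value of all 6 mice for 27 of the 29 genes, where it had the highest value for 12.8% of all genes; ZnR mouse 3 was highest for the other 2, Sox10 and Bin1 (22.7% of all genes). The lowest value came from control mouse 9 for 17 genes (22.7% of all genes), from control mouse 1 for 5 (23%), from ZnR mouse 7 for 5 (10%) and from control mouse 5 for 2 (10.6%). For 27 genes both ZnR mice 3 and 11 exceeded every control (93.1% of the members, against 21.7% of all genes). ZnR mouse 7 was below the control mean for 14 of the 29 genes, a somewhat larger share than the 4671 of all 11749 genes. It was below every control for 5, a smaller share than the 2623 of all 11749 genes. For 10 members all 3 ZnR mice, mouse 7 included, were above every control (34.5%, against 16.5% of all genes). The order mouse 11, mouse 3, mouse 7 among the ZnR mice held for 26 genes, against 11.2% of all genes.

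**Figure D1:**
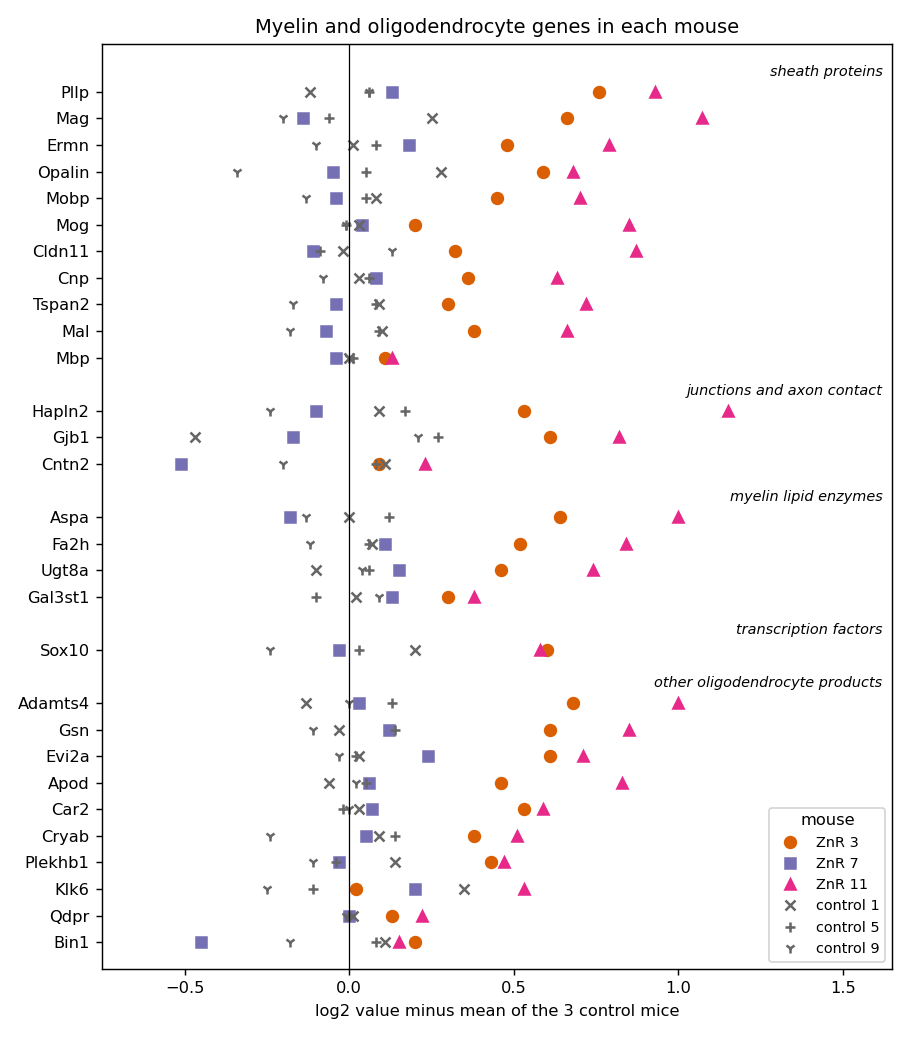
Each row is 1 member gene (representative probe set) and each symbol 1 mouse, placed on the x axis by its log2 value minus the mean of the 3 control mice. For 27 of the 29 genes ZnR mice 3 and 11 both lie to the right of all controls, Klk6 and Cntn2 being the exceptions. ZnR mouse 7 lies between 0.51 below and 0.24 above the control mean, farthest below for Cntn2 and Bin1.

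The size of the difference depended on ZnR mice 7 and 11. Averaged over the 29 genes it was 0.36. Leaving out ZnR mouse 7 gave 0.55, leaving out mouse 11 gave 0.21 and leaving out mouse 3 gave 0.33. Leaving out a control mouse gave 0.32 to 0.39. The median over genes was 0.59 in the absence of ZnR mouse 7 and 0.22 in that of mouse 11. Without ZnR mouse 7, 2 probe sets passed the threshold, where 0.0709% of all probe sets were called higher: that of Pllp (0.84 ± 0.11 SE, adjusted p = 0.0473) and 1 of 3 for Cnp (0.84 ± 0.10 SE, adjusted p = 0.0442). Arrays were also weighted by how closely each followed the mean of its diet over all tested probe sets. This weighted control mouse 5 at 6.57 and the others at 0.512 to 0.987. Evi2a (0.53 ± 0.10 SE, adjusted p = 0.0262) and Gal3st1 (0.36 ± 0.08 SE, adjusted p = 0.0437) then passed, where 3.59% of all probe sets were called higher.

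Among the sheath proteins, the 11 genes of the myelin membrane itself, all 11 averaged higher in ZnR mice and none passed the test (differences 0.06 to 0.61, adjusted p from 0.167 to 0.751). Pllp, which encodes the tetraspan membrane protein plasmolipin, measured 8.77, 8.14 and 8.94 log2 units in ZnR mice 3, 7 and 11, against 7.89, 8.07 and 8.07 in control mice 1, 5 and 9. All ZnR mice were above all controls, mouse 7 by little. The difference of 0.61 ± 0.20 SE, or 1.52-fold, was the largest of the 29 genes and had an adjusted p of 0.175. Ermn, which encodes the cytoskeletal protein ermin of mature oligodendrocytes, measured 9.16, 8.86 and 9.47 in the ZnR mice and 8.69, 8.76 and 8.58 in the controls. In this probe set the groups did not overlap either (0.49 ± 0.15 SE, adjusted p = 0.167). In the other tested Ermn probe set they did (0.52 ± 0.30 SE, adjusted p = 0.44). There ZnR mouse 7, at 8.25, was below every control (8.54, 8.63 and 8.27).

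Mag, an adhesion molecule on the myelin surface facing the axon, had the second widest spread among ZnR mice. It measured 9.46, 8.66 and 9.87 in ZnR mice 3, 7 and 11, against 9.05, 8.74 and 8.60 in control mice 1, 5 and 9. Mouse 7 lay within the control range, while mouse 11 was 2.11-fold above the control mean. The difference was 0.53 ± 0.29 SE (adjusted p = 0.402). Mog, a surface protein of the outermost myelin layer, had close controls and a single high mouse: 8.92, 8.76 and 9.57 in the ZnR mice, against 8.75, 8.71 and 8.71 in the controls. ZnR mouse 11 was 1.80-fold above the control mean, ZnR mouse 7 1.03-fold, and the difference was 0.36 ± 0.19 SE (adjusted p = 0.4).

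Cnp, an enzyme of the cytoplasmic channels of myelin, measured 12.48, 12.20 and 12.75 in ZnR mice 3, 7 and 11, against 12.15, 12.18 and 12.04 in control mice 1, 5 and 9. The groups did not overlap (0.35 ± 0.14 SE, adjusted p = 0.265). Its other probe sets differed by 0.55 ± 0.23 and 0.41 ± 0.27 (adjusted p = 0.272 and 0.506), and in both ZnR mouse 7 lay inside or below the controls. Mobp, a protein of compact myelin, measured 12.52, 12.03 and 12.77 in the ZnR mice and 12.15, 12.12 and 11.94 in the controls, with ZnR mouse 7 between the controls (0.37 ± 0.18 SE, adjusted p = 0.354). The remaining sheath genes were Opalin (0.40), Cldn11, which makes the tight junctions of myelin (0.36), Tspan2 (0.33) and the raft protein gene Mal (0.32). In each of these 4, ZnR mice 3 and 11 exceeded all controls and ZnR mouse 7 did not.

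Mbp, the basic protein that joins the inner faces of the membrane, was read by 8 tested probe sets that did not go the same way. The brightest measured 14.42, 14.27 and 14.44 in ZnR mice 3, 7 and 11, against 14.31, 14.32 and 14.31 in control mice 1, 5 and 9. These values are near the highest of the whole table, 14.72, and the difference was 0.06 ± 0.08 SE (adjusted p = 0.751). Probe sets at mean levels of 9.90 to 13.12 differed by 0.15 to 0.24, and the 2 dimmest, at 8.78 and 7.34, by -0.07 ± 0.12 and -0.32 ± 0.21 (adjusted p = 0.831 and 0.507). In the dimmest, ZnR mouse 7 measured 6.64, against 7.44 to 7.59 in the controls. Mbp was the 1 gene of 15 with several tested probe sets whose probe sets differed in sign. The platform annotation used here does not say which Mbp transcripts each probe set reads.

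**Figure D2:**
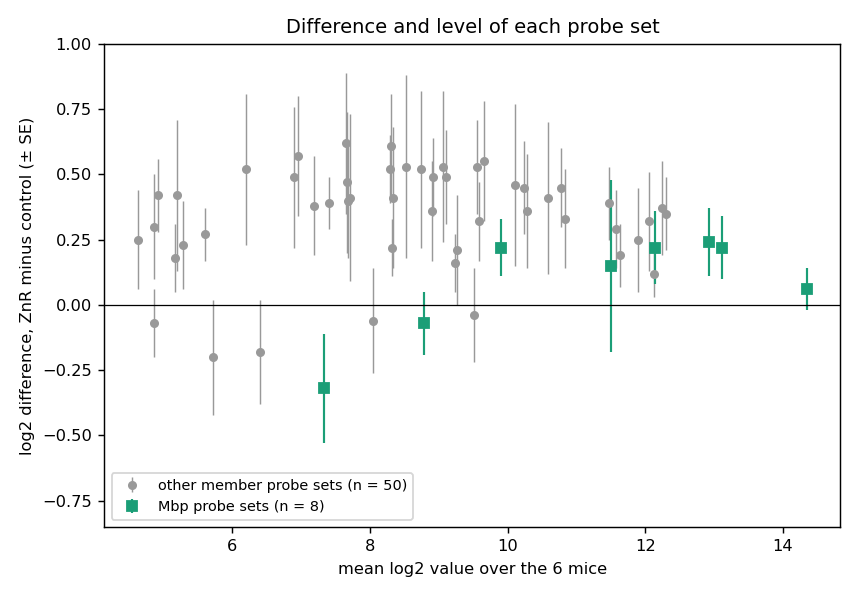
Each point is 1 of the 58 tested member probe sets, with its mean log2 value over the 6 mice on the x axis and its log2 difference, ZnR minus control, on the y axis; bars are moderated standard errors. The 8 Mbp probe sets (squares) run from -0.32 at the dimmest to 0.24, with 0.06 at the brightest.

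The promoters of these genes are shown because the members varied together between mice, and because Sox10 and Myrf are known activators of them. The set of RefSeq start sites used here, on assembly GRCm38.p6, held none for Mbp, Sox10, Trf, Car2, Cryab, Fa2h, Evi2a, Bin1 and Adamts4. Promoters of these genes were not searched. For the other 22 of the 31 genes it held 34 start sites, some with overlapping windows. The 250 bases before each were searched on both strands for ACAAAG, a core that SOX factors bind, and for CTGGCAC or CTGGTAC, which Myrf binds. Below, capitals mark these matches, which overlap nowhere in the 34 windows.
Mag (chr7:30914864-30915113, minus strand): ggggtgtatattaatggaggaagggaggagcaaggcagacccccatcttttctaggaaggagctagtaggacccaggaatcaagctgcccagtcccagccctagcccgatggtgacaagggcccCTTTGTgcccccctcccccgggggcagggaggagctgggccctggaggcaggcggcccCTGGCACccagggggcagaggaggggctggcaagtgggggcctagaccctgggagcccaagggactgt
Cnp (chr11:100574689-100574938, plus strand): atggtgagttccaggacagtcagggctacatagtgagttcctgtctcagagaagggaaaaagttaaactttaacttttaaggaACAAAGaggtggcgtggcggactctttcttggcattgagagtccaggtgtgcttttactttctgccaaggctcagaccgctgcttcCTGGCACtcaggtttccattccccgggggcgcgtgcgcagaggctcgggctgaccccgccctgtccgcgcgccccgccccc
Mobp (chr9:120149492-120149741, plus strand): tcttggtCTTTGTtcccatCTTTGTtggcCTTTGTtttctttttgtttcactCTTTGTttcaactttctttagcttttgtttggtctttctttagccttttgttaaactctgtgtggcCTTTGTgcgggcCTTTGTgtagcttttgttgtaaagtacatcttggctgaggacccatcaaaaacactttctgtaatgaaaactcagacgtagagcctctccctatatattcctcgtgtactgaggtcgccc
Mog (chr17:37023399-37023648, minus strand): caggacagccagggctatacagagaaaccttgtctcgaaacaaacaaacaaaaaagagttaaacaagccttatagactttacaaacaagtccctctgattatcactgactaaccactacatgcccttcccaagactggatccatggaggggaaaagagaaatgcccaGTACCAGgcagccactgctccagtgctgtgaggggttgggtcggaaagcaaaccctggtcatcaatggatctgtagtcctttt
Mag and Cnp hold 1 match of each kind. Mag has 3 start sites in RefSeq. In the window shown, the SOX core begins 126 bases and the Myrf motif 68 bases before its start; the overlapping window of a second start holds the same matches at 67 and 9 bases, and that of the third holds neither. In Cnp they begin 167 and 81 bases before the start. Mobp holds 6 SOX cores within a stretch rich in T, between 243 and 120 bases before its start, and Mog holds 1 Myrf motif 83 bases before its start.

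Of the 34 member promoters, 11 held the SOX core (32.4%, against 16.5% of 32851 promoters of the same length) and 5 the Myrf motif (14.7%, against 5.93%), with the Mag matches counted in 2 overlapping windows each time. The SOX cores belonged to 9 genes (Apod, Cnp, Gjb1, Klk6, Mag, Mobp, Opalin, Plekhb1 and Tspan2) and the Myrf motifs to 4 (Cnp, Hapln2, Mag and Mog). The metal response core of the zinc sensor Mtf1, TGCGCNC or TGCACNC, was found in 10 of the 34 (29.4%, against 21.4%), in Cnp, Gal3st1, Gjb1, Gsn, Nkx6-2, Qdpr, Tspan2 and Ugt8a. The Gal3st1 matches to this core were counted in 2 overlapping windows. A match says only that these letters occur there.

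Sox10, the transcription factor gene, measured 7.60, 6.97 and 7.58 in ZnR mice 3, 7 and 11, against 7.20, 7.03 and 6.76 in control mice 1, 5 and 9. ZnR mouse 7 was inside the control range. The difference was 0.38 ± 0.19 SE (adjusted p = 0.365). Myrf, which is outside the member list, measured 7.43, 6.52 and 7.56 in the ZnR mice and 6.82, 6.62 and 6.46 in the controls (0.54 ± 0.26 SE, adjusted p = 0.349). The same 2 ZnR mice were high.

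The enzymes of myelin lipids averaged higher in all 4 cases (0.27 to 0.49) and none passed. Ugt8a, which makes galactosylceramide, the main glycolipid of myelin, measured 11, 10.69 and 11.28 in ZnR mice 3, 7 and 11, against 10.44, 10.60 and 10.58 in control mice 1, 5 and 9. Every ZnR mouse exceeded every control in this probe set (0.45 ± 0.15 SE, adjusted p = 0.182). In the other tested Ugt8a probe set the groups overlapped (0.62 ± 0.27 SE, adjusted p = 0.303). There ZnR mouse 7, at 7.30, was below every control (7.35, 7.38 and 7.32). Fa2h, which hydroxylates the fatty acids of these lipids, measured 9.38, 8.97 and 9.70 in the ZnR mice and 8.93, 8.92 and 8.74 in the controls. Here too the groups did not overlap, though ZnR mouse 7 was within 0.04 of a control (0.49 ± 0.18 SE, adjusted p = 0.221).

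Aspa, which splits N-acetylaspartate and so supplies acetate for lipid synthesis, measured 7.30, 6.48 and 7.66 in ZnR mice 3, 7 and 11, against 6.66, 6.78 and 6.53 in control mice 1, 5 and 9. ZnR mouse 7 was the lowest of the 6, while ZnR mouse 11 was 2.00-fold above the control mean (0.49 ± 0.27 SE, adjusted p = 0.409). Gal3st1, which adds sulfate to make sulfatide, differed by 0.27 ± 0.10 SE (adjusted p = 0.23) with no overlap, and had the narrowest range over the ZnR mice of the 4 enzymes, 0.25, against 0.58 to 1.18 for the others.

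Of the 3 genes of junctions and axon contact, 2 averaged higher and 1 lower, and none passed. Hapln2, a link protein of the matrix at nodes of Ranvier, had the widest range among ZnR mice of any member, 1.25. It measured 6.46, 5.83 and 7.08 in ZnR mice 3, 7 and 11, against 6.02, 6.10 and 5.69 in control mice 1, 5 and 9 (0.52 ± 0.29 SE, adjusted p = 0.412). ZnR mouse 11 was 2.21-fold above the control mean, the largest such ratio of the 29 genes. Gjb1, the gap junction protein connexin 32, differed by 0.42 ± 0.29 SE (adjusted p = 0.522). Its other tested probe set also differed by 0.42 (± 0.14 SE, adjusted p = 0.174), and there every ZnR mouse exceeded every control. Cntn2, an adhesion molecule of the axon beside the node, differed by -0.06 ± 0.20 SE (adjusted p = 0.913).

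Of the 10 other oligodendrocyte products, 9 averaged higher and 1 lower, and none passed. Evi2a, a membrane protein gene, came nearest to the threshold. It measured 8.64, 8.27 and 8.74 in ZnR mice 3, 7 and 11, against 8.06, 8.05 and 8.00 in control mice 1, 5 and 9, with a gap between the groups (0.52 ± 0.13 SE, adjusted p = 0.102). Evi2a was also the member for which ZnR mouse 7 stood farthest above the controls, by 0.24.

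Adamts4, a secreted protease of the extracellular matrix, measured 7.35, 6.70 and 7.67 in ZnR mice 3, 7 and 11, against 6.54, 6.80 and 6.67 in control mice 1, 5 and 9. ZnR mouse 7 lay between the controls (0.57 ± 0.23 SE, adjusted p = 0.264). Gsn, which encodes the actin-severing protein gelsolin, measured 9.91, 9.42 and 10.15 in the ZnR mice and 9.27, 9.44 and 9.19 in the controls (0.53 ± 0.18 SE, adjusted p = 0.201). Its other 4 tested probe sets differed by 0.16 to 0.39. The one at 0.39 ± 0.10 SE (adjusted p = 0.11) had no overlap. It measured 7.56, 7.53 and 7.69 in ZnR mice 3, 7 and 11, against 7.06, 7.32 and 7.24 in control mice 1, 5 and 9. The groups did not overlap in the one at 0.22 either (adjusted p = 0.368), and overlapped in those at 0.16 and 0.18. The lipid carrier gene Apod (0.45) and the carbonic anhydrase gene Car2 (0.39) had no overlap between diets. Cryab, a small heat shock protein gene, Plekhb1 and the protease gene Klk6 differed by 0.32, 0.29 and 0.25, Qdpr, an enzyme that regenerates a cofactor of neurotransmitter synthesis, by 0.12, and Bin1, a membrane-bending protein, by -0.04. Adjusted p-values of these 7 ran from 0.213 to 0.95.

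Over the 29 genes, 10 were higher in every ZnR mouse than in every control (34.5%, against 16.5% of all genes) and 0 were lower (against 11.1%). By probe set it was 13 of 58, or 22.4%, against 13.1% of all probe sets. The SD over the ZnR mice exceeded that over the control mice for 28 of the 29 genes (96.6%), where it did so for 49.6% of all genes; Klk6 was the exception. The median SD was 0.37 over ZnR mice and 0.12 over control mice for the members, and 0.11 for both diets over all genes.

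**Figure D3:**
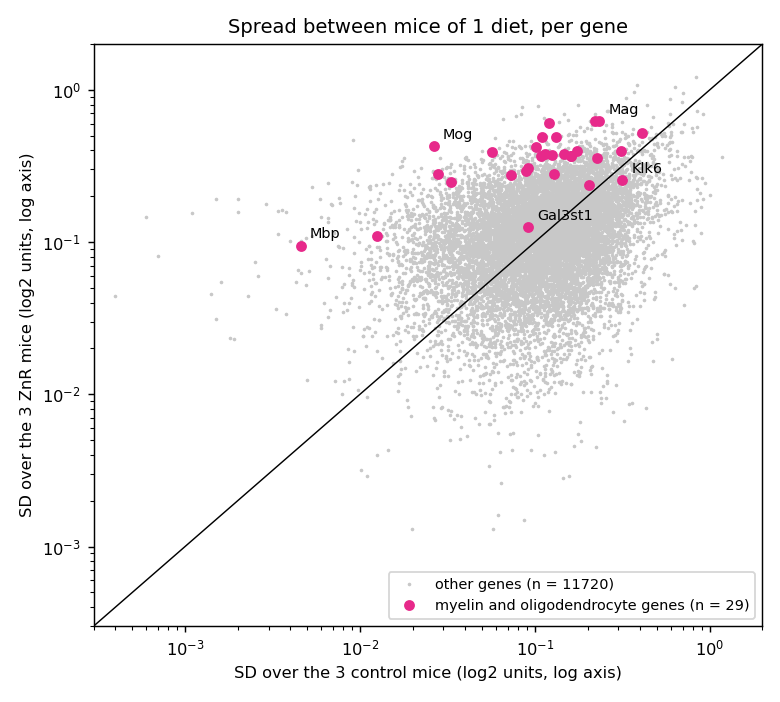
Each point is 1 gene, with the SD over the 3 control mice on the x axis and the SD over the 3 ZnR mice on the y axis, both in log2 units on log axes; the line marks equal SDs. Of the 29 member genes, 28 lie above the line, against 49.6% of all genes.

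Other genes of the lineage were counted from lists. Among all 11749 genes, limma gave 1344 higher and 859 lower at an unadjusted p under 0.05. Of 30 further genes of mature oligodendrocytes, 26 were tested: 24 averaged higher, 2 lower, and 0 passed (11 higher and 1 lower at an unadjusted p under 0.05), with a median difference of 0.32. Their mean per mouse repeated the pattern, at 0.23, -0.15 and 0.39 in ZnR mice 3, 7 and 11, against -0.09, -0.14 and -0.23 in the controls. Gamt, an enzyme of creatine synthesis, had the smallest p (0.42 ± 0.10 SE, adjusted p = 0.103), followed by the transcription factor gene Olig2 (0.63 ± 0.20 SE, adjusted p = 0.169) and the junction gene Jam3 (0.48 ± 0.16 SE, adjusted p = 0.176). Olig2 did not follow the members in ZnR mouse 7, with 7.31, 7.70 and 8.00 in ZnR mice 3, 7 and 11, against 6.78, 6.99 and 7.34 in the controls.

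Genes of newly formed oligodendrocytes had a higher list mean in each ZnR mouse than in each control, while single genes varied. Of 12 listed, 10 were tested, with 8 higher on average and 2 lower, and 1 rose past the threshold. In 4 of the 10 every ZnR mouse exceeded every control (against 16.5% of all genes). In 2 of the 10 ZnR mouse 7 was below all controls (against 2623 of all 11749 genes). The list averaged 0.09, 0.08 and 0.23 in ZnR mice 3, 7 and 11, against -0.16, -0.11 and -0.13 in the controls, with a median difference of 0.30. The gene that rose was Cemip2, a cell surface hyaluronidase gene (0.60 ± 0.09 SE, adjusted p = 0.03), at 6.83, 6.95 and 6.90 in ZnR mice, against 6.19, 6.38 and 6.31 in controls. Gpr17, a receptor of cells about to mature, measured 0.34 ± 0.09 SE (adjusted p = 0.118), and Enpp6, an enzyme that marks the newly formed cells, 0.77 ± 0.22 SE (adjusted p = 0.141). Whether this list and the myelin genes differ in their response to the diet was not tested.

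Of 12 precursor genes, 10 were tested, 9 averaged higher and 1 lower, and 0 passed in limma (2 higher and 0 lower at an unadjusted p under 0.05; median 0.12). Olig2, which is also in the mature list, Cspg4 (0.32, adjusted p = 0.192) and Vcan (0.18, adjusted p = 0.365) had the smallest p-values. Of 12 genes of myelin lipid synthesis and breakdown that many cells express, 6 averaged higher and 6 lower and 0 passed (1 higher and 0 lower at an unadjusted p under 0.05; median 0.02). Galc, which breaks down galactosylceramide, measured 0.37 ± 0.11 SE (adjusted p = 0.153), Elovl1 0.40 ± 0.20 SE (adjusted p = 0.362) and Cers2, also in the mature list, 0.17 ± 0.10 SE (adjusted p = 0.422).

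**Figure D4:**
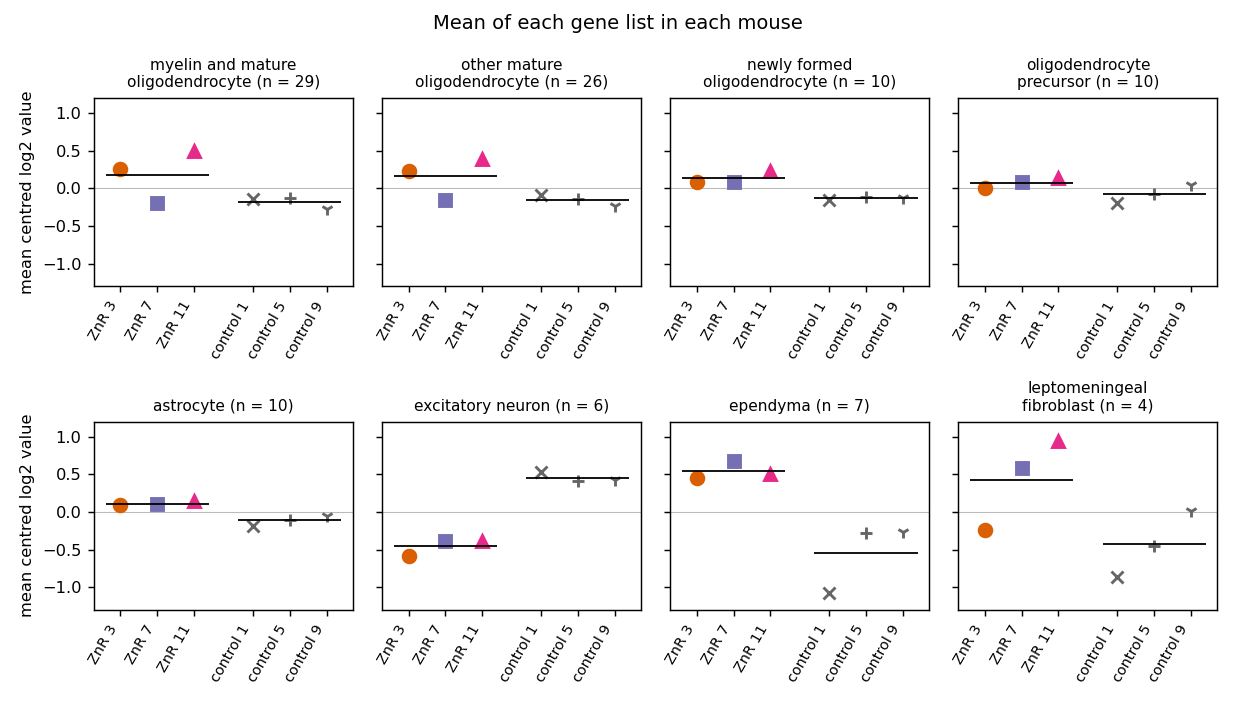
Each panel is 1 gene list and each symbol 1 mouse; the y axis is the mean over the list of log2 values centred on the 6 mice, horizontal lines are the means of the 3 mice of a diet, and n is the number of genes. ZnR mouse 7 sits at -0.20 with the controls for the myelin genes and at -0.39 with the other ZnR mice for excitatory neuron markers.

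Markers of other cells were read in the same arrays. Excitatory neuron markers were lower in every ZnR mouse (-0.59, -0.39 and -0.38 in ZnR mice 3, 7 and 11, against 0.53, 0.41 and 0.42 in the controls). Of these 6 genes, 5 fell, led by Nrn1 (-1.27) and Slc17a7 (-1.08). The log2 of their summed signal was 11.53 to 11.82 in ZnR mice, against 12.69 to 12.79 in controls. For these markers ZnR mouse 7 stood with the other ZnR mice, 0.85 below the control mean.

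Ependyma markers averaged 0.45, 0.68 and 0.50 in ZnR mice 3, 7 and 11, against -1.08, -0.28 and -0.27 in the controls. All 7 were higher in every ZnR mouse than in every control (against 16.5% of all genes), and 3 rose, among them Cfap126 (0.98) and Tmem212 (1.44). Their summed signal was 8.77 to 9.01 in ZnR mice, against 7.13 to 7.99 in controls. Of 7 choroid plexus markers, 4 were tested and 1 rose, Clic6 (1.53), with Otx2 at 1.01. The other tested markers were Ttr (0.66 ± 0.46 SE, adjusted p = 0.529) and Kl (0.27). Ttr was near the level filter and overlapped between diets, at 4.14, 3.77 and 5.36 in ZnR mice 3, 7 and 11, against 3.64, 4.52 and 3.15 in the controls. The summed signal of the choroid plexus list was 8.36 to 8.46 in ZnR mice, against 6.82 to 7.56 in controls. Aqp1, Folr1 and Kcne2 did not pass the level filter. ZnR mouse 7 was the highest of the 6 mice for ependyma.

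Of 7 leptomeningeal fibroblast markers, 4 were tested and 0 passed in limma (2 higher and 0 lower at an unadjusted p under 0.05), with Igf2 at 0.88 and Dcn at 1.09. ZnR mouse 11 was the highest, at 0.94, with -0.24 in mouse 3 and 0.59 in mouse 7, against -0.86, -0.45 and 0.01 in the controls. The summed signal was 9.27 to 10.27 in ZnR mice, against 8.58 to 9.39 in controls, and Col1a1, Lum and Slc6a13 did not pass the filter. Of 9 tested markers of striatal medium spiny neurons, all averaged higher and 2 rose, Gpr6 (0.58) and Drd2 (0.89). Their mean was 0.38, 0.14 and 0.21 in ZnR mice 3, 7 and 11, against -0.04, -0.21 and -0.47 in the controls, and their summed signal 14.84 to 15.04, against 14.37 to 14.69. As for the myelin genes, ZnR mouse 7 was the lowest of its diet and control mouse 9 the lowest control.

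Astrocyte markers averaged 0.09, 0.10 and 0.14 in ZnR mice 3, 7 and 11, against -0.18, -0.10 and -0.05 in controls. Of these 10 genes 1 rose, the filament gene Gfap (0.79, adjusted p = 0.0214), and Aldh1l1 measured 0.37. The summed signal was 15.42 to 15.46 in ZnR mice, against 15.28 to 15.44 in controls. Peripheral myelin markers were little measured: Pmp2 and Ncmap of Schwann cells did not pass the filter, and Egr2 (-0.09) and Sox2 (0.25) are expressed by other brain cells. Of the other lists, microglia markers had a median difference of -0.10 (C1qb and P2ry12 smallest in p), endothelium 0.10 (Cldn5, Pecam1) and mural cells 0.16 (Pdgfrb, Acta2). For interneurons it was 0.12 (mean -0.06). In that list 1 gene fell, Vip, and Slc32a1 measured 0.56. Endothelium markers averaged 0.12, -0.11 and 0.18 in ZnR mice 3, 7 and 11, against -0.16, -0.02 and 0 in control mice 1, 5 and 9. As for the myelin genes, ZnR mice 3 and 11 were above every control and mouse 7 was among the controls. The part of these cell types in the myelin differences was not tested.

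The 18S ribosomal RNA control probe sets set 2 arrays apart: they averaged 8.44 in ZnR mouse 3 and 9.09 in control mouse 1, against 10.88 to 12.38 on the other 4 arrays. Within that pair the member genes differed by 0.39, and between the other 4 mice by 0.35. With the pair as a block, 0 members passed in limma and the smallest adjusted p was 0.087. The 3′ minus 5′ log2 signal of the Actb control, a measure of RNA integrity, was 0.86, 1.24 and 0.97 in ZnR mice 3, 7 and 11, against 0.93, 1.06 and 1.05 in control mice 1, 5 and 9. ZnR mouse 7, where the myelin genes were lowest among the ZnR mice, had the highest of these values, and its part in the result was not tested.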

How the data were processed

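Total RNA of each mouse was labelled and hybridized to 1 Affymetrix Mouse430_2 array, per the labels' protocols. The authors deposited log2 values for each probe set and mouse. The submitters' processing notes name R 2.15.1 and GCRMA 2.28.0, a method that corrects background by probe sequence, gives all arrays 1 distribution and summarises probes, so a change in total RNA cannot be seen. The sources used here do not say whether mice shared litters or cages.

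All 45101 probe sets were joined to the platform annotation (34945 with 1 symbol, 932 with several, 9160 with none, 64 array controls), and symbols were updated by Entrez identifier for 34741 of them with a gene table of assembly GRCm38.p6. Probe sets above log2 4 on at least 3 of 6 arrays were kept (25381). The diets were tested with limma 3.58.1 in R 4.3.3 (lmFit and eBayes, 2-sided, no covariates), with Benjamini-Hochberg adjustment over all kept probe sets at 0.05. Folds are back-transformed log2 differences, and SE is the moderated standard error. A gene was represented by its kept probe set with the highest mean (11749 genes). The fit was tested on simulated data. It recovered 14 of 50 probe sets changed by a log2 of 0.5 and 38 of 50 changed by 1, with 10 false calls. Changes of 0.5, larger than the members' median of 0.38, were thus mostly missed among these probe sets, drawn at random from all those tested. Members spread more widely among ZnR mice (median SD 0.37, against 0.11 over all genes). Recovery at the members' spread was not simulated. Tables and plots used Python 3.11.15, pandas 2.3.3 and matplotlib 3.10.9, and robust variances statmod 1.5.0.

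The members and lists were chosen with earlier results of these data known, so no test over a list was made. Values in every mouse are given for the 10 members with the largest absolute difference, for any past the threshold and for Mbp, Mog, Mag, Mobp, Cnp and Sox10. Of each lineage list the 3 genes smallest in p, Myrf and Olig2 are named, and of each marker list 2, with Ttr and Kl added for choroid plexus. Of the list entries, 11 had no single-symbol probe set and are not analysed here. Alternatives covered the level filter, normalization, variance prior, weighting of arrays, leaving out each mouse, the low-18S pair, neighbouring mouse numbers as a block and the probe set rule.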

Additional observations from a re-analysis of the deposited data

How the results depend on the processing

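No label pairs the mice, and the diets share no mouse number. With neighbouring mouse numbers as a block (1 and 3, 5 and 7, 9 and 11), an alternative chosen after seeing the data, 0 members passed in limma (smallest adjusted p = 0.112), their median difference was 0.38, and 235 of all probe sets were called, against 373 without it. The count of member probe sets past the threshold was 0 higher and 0 lower, and moved under 2 alternatives. It was 2 higher with array weights (Evi2a, adjusted p = 0.0262, and Gal3st1, adjusted p = 0.0437), a setting that calls 3.59% of all probe sets higher and weights control mouse 5 at 6.57 against 0.512 to 0.987 for the others. Leaving out 1 mouse gave 0 to 2, the 2 without ZnR mouse 7. The median difference over member genes stayed above 0 in every alternative run, from 0.22 without ZnR mouse 11 to 0.59 without ZnR mouse 7; the others gave 0.35 to 0.41. Each of the 15 members given by mouse stayed higher in ZnR mice under every alternative. Most of these 15 were chosen for their large difference in the same data, so their sign was likely to hold. This says little about the other members, and Bin1 and Cntn2, which averaged lower, are not among the 15.

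Among the other lists, the median of the newly formed oligodendrocyte genes (0.30) was 0.23 without the low-18S arrays. That of excitatory neuron markers (-0.93) was -1.02 at a level filter of 5, -0.73 without the low-18S arrays and -1.03 to -0.83 with 1 mouse left out. For astrocytes (0.13) it was 0.08 to 0.24 with 1 mouse left out, and for lipid synthesis (0.02) -0.02 to 0.05, 0 at a level filter of 5 and 0.05 without the low-18S arrays. Choroid plexus (0.84) gave 1.53 at a filter of 5, where 1 gene is left, and 0.34 with no filter, where 7 genes are. Apart from the filters, the cause was not tested.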
